A study of Mus musculus with 14 samples.

Results

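Cultures of bone marrow mesenchymal stromal cells (MSC), labelled so by the study, were compared after exposure to interleukin-1β (IL-1β) and after phosphate-buffered saline (PBS), the vehicle control. The comparison took every library of the MSC count table, 4 of the 14 libraries of the series: replicates 2 and 3 with PBS, and replicates 1 and 2 with IL-1β. All 13239 genes that passed a filter on low counts were tested, of 55487 annotated identifiers. The study asked how IL-1 signalling contributes to clonal expansion and marrow fibrosis in a myeloproliferative neoplasm driven by JAK2 V617F, and these cultures addressed the stromal side of that question. The cells came from the marrow of wild-type C57BL/6 mice, which carry no Jak2 mutation and no transgene. They were grown for 21 days in DMEM with 10% fetal bovine serum and then received IL-1β at 5 ng/ml or PBS for 72 h. Total RNA was depleted of ribosomal RNA and sequenced. The libraries of one treatment are not stated to come from separate cultures or animals, so the p-values measure only the spread between these libraries. That spread may be technical for the IL-1β pair, while the PBS pair differed in a female-specific RNA, as given below.

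IL-1 is a family of inflammatory cytokines whose type 1 receptor signals through the adaptor MyD88 and the IRAK kinases to the transcription factor NF-κB. NF-κB switches on chemokines, cytokines and acute-phase proteins, together with inhibitors that limit its own activity. In bone marrow, stromal cells answer IL-1 with factors that attract and feed myeloid cells, and they also supply the niche factors and the matrix in which blood stem cells lie. Macrophages adhere to plastic as stromal cells do and grow beside them in marrow cultures unless they are removed.

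The transcripts in these cultures went against their label. A list of 20 macrophage markers reached a summed level of 21253 CPM per kb in PBS replicate 2, 18579 in PBS replicate 3, 32073 in IL-1β replicate 1 and 32822 in IL-1β replicate 2, where CPM is the TMM-scaled share of a library's read pairs, in the usual per-million unit, and kb is the exon length of the gene. The corresponding sums of 20 mesenchymal markers were 458, 240, 556 and 614 CPM per kb. The macrophage sum was thus 46.4, 77.4, 57.7 and 53.5 times the mesenchymal sum in these libraries. All 20 macrophage markers lay above a floor of 3 counts in every library, and the defining macrophage receptor gene Csf1r stood at 1193 and 683 CPM with PBS and 2184 and 2268 CPM with IL-1β. The mesenchymal markers Col1a1 and Col1a2, which encode the chains of type I collagen, were abundant, with 814 and 406 CPM with PBS and 1086 and 1311 CPM with IL-1β for Col1a1. Lepr, which marks CXCL12-producing perivascular stromal cells, and the hedgehog effector gene Gli1 were at or near 0 in every library. Of the 25 genes with the highest level per kb, 7 with PBS and 6 with IL-1β were on the macrophage list, and 0 were on the mesenchymal list. The libraries are therefore called marrow cultures below. Xist, the X-inactivation RNA of female cells, had 0 counts in PBS replicate 3 and between 325 and 2103 in each of the other libraries. The Y-linked Ddx3y had counts in all 4, so that Xist set PBS replicate 3 apart from the others. The mix of female and male cells thus differed within the PBS pair and was not matched between the treatments. Its part in the results was not tested. In bulk RNA, fewer cells of a type and less RNA per cell cannot be told apart, and this holds for every gene that one of these cell types expresses more than the other.

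**Figure D1:**
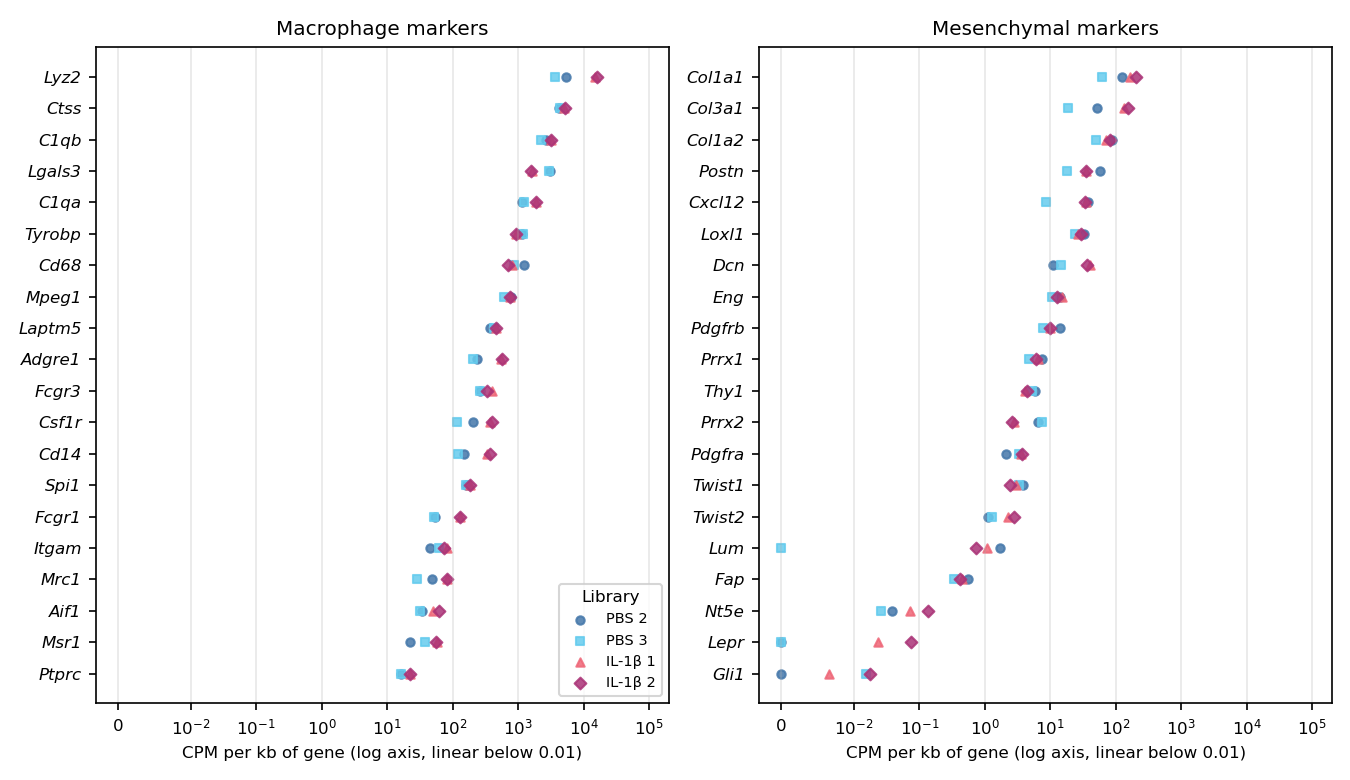
Level of 20 macrophage and 20 mesenchymal stromal marker genes in each of the 4 marrow culture libraries, in CPM per kb of exon on an axis that is linear below 0.01 and logarithmic above. Each point is a gene in a library, and the macrophage markers lie far above most mesenchymal markers with PBS as with IL-1β, their sums being 21253 against 458 CPM per kb in PBS replicate 2 and 32073 against 556 in IL-1β replicate 1.

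The macrophage markers themselves moved with the treatment. Of the 20, 8 rose (40%, against 7.14% of all genes) and 1 fell (5%, against 4.31%) with IL-1β by edgeR's quasi-likelihood test. A gene was called at a Benjamini-Hochberg adjusted p below 0.05 and a log2 fold change beyond 0.5. Lyz2, which encodes the lysozyme of macrophages, was at 7133 and 4803 CPM with PBS and 19873 and 20803 CPM with IL-1β (log2 fold change 1.77 ± 0.21, adjusted p = 0.00865). The treatments did not overlap. Adgre1, the gene of the F4/80 antigen, rose by 1.32 ± 0.13 (adjusted p = 0.00468) and Csf1r by 1.25 ± 0.27 on the log2 scale (adjusted p = 0.0431). Fcgr1, the high-affinity IgG receptor gene, was at 141 and 134 CPM with PBS and 334 and 339 CPM with IL-1β and rose by 1.29 ± 0.10 (adjusted p = 0.00266). Lgals3, encoding galectin-3, was the marker that fell, from 5599.8 and 5509.6 CPM to 3067 and 2891 CPM. Cd68, a lysosomal glycoprotein gene, was at 1519.9 and 1089 CPM with PBS and 1011 and 867 CPM with IL-1β and was not called (adjusted p = 0.158). All 9 calls were lost when either IL-1β library was left out. Of 17 mesenchymal markers tested, Dcn and Twist2 rose (11.8%) and Prrx2 fell (5.9%), against 7.14% and 4.31% of all genes. Twist2 was not called by DESeq2 (adjusted p = 0.075) or limma-voom (adjusted p = 0.0525). Of the lists of other cell types, 12 neutrophil markers summed to 3.83 and 3.24 CPM with PBS and 18.8 and 18.3 CPM with IL-1β. The granule protein genes Camp and Mmp8 on that list rose, calls that were lost without either IL-1β library, and the defining Ly6g, S100a9, Ngp and Retnlg were at 0 in all 4 libraries. The 8 dendritic cell markers summed to 156 and 333 CPM with PBS and 57.5 and 52.2 CPM with IL-1β. Most of that sum was Itgax, an integrin gene that macrophages also express, at 155 and 331 CPM with PBS and 56.3 and 51.2 CPM with IL-1β, while Flt3 and Siglech were at 0 in all 4. Lymphoid markers summed to between 5.5 and 32 CPM, most of it Cd4, and endothelial markers to between 12.7 and 19.1 CPM. The erythroid list and the mast cell and megakaryocyte list each summed to at most 3.5 CPM in any library. The part of these shifts in macrophage, neutrophil and dendritic cell markers in the results below was not tested.

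Across all 13239 genes, IL-1β went with a called rise of 945 (7.14%) and a called fall of 570 (4.31%). The median log2 fold change was 1.03 among the genes called higher, of which 487 passed 2-fold and 208 passed 4-fold, and -0.80 among those called lower, of which 199 passed 2-fold. The median over all genes tested was 0.00. The IL-1β pair lay wholly above the PBS pair for 4145 genes (31.3%) and wholly below it for 3951 (29.8%), so that separation of the libraries alone was common. Which libraries entered the fit decided the number of calls. Without IL-1β replicate 1, 38 rises and 0 falls were called, although 585 genes lay below the fold threshold at an unadjusted p under 0.05. Without IL-1β replicate 2, 80 were called higher and 2 lower. Without PBS replicate 2 the counts were 2038 and 1781, and without PBS replicate 3 they were 1639 and 1155. In these fits the lone library of a treatment is assumed to vary like the pair of the other treatment, and the PBS pair varied more: its libraries differed over 2-fold at 1324 genes against 180 for the IL-1β pair. The 38 genes called in each of the 4 fits were all higher with IL-1β, and 13 of them were in the 2 interferon lists described below. Upper-quartile scaling moved the median log2 fold change over all genes to -0.06 and called 817 genes higher and 831 lower, a share of 49.6% higher against 62.4% with TMM.

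The largest rise was in Saa3 (serum amyloid A3, chromosome 7, 46711998 to 46715700, GRCm38), an acute-phase apolipoprotein. It was at 2.33 and 1.36 CPM with PBS and at 1603 and 1955 CPM with IL-1β. The groups were widely apart, with a log2 fold change of 10.02 ± 0.28 (adjusted p = 0.00021). Slc13a3, which encodes a sodium-coupled dicarboxylate transporter, went from 1 and 0.527 CPM to 86.9 and 91.2 CPM (log2 fold change 7.01 ± 0.22, adjusted p = 0.000268). Ednrb, the endothelin receptor type B gene, went from 2.5 and 1.05 CPM to 56.7 and 57.5 CPM (log2 fold change 5.19 ± 0.29, adjusted p = 0.00144). Marco, a scavenger receptor of macrophages, was at 0 and 0.377 CPM and then at 21.1 and 25.2 CPM. The remaining genes among the 15 largest rises were Nos2, Fpr1, Ifi213, Il1b, Il6, Ifi206, Lcn2, Cxcl1, Hp, Cxcl5 and Ccl5, taken up by role below. Saa3, Nos2, Fpr1, Slc13a3, Ifi213, Il1b, Il6, Lcn2 and Ccl5 were called in every fit that left out 1 library, and the other 21 of the 30 genes with the largest rises and falls were not.

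The falls were smaller. Ankdd1a went from 7.17 and 7 CPM with PBS to 0.492 and 0.529 CPM with IL-1β (log2 fold change -3.79 ± 0.34, adjusted p = 0.00401). Cdkn1c, which encodes the cyclin-dependent kinase inhibitor p57, went from 197 and 96.9 CPM to 15.6 and 15.4 CPM (log2 fold change -3.23 ± 0.38, adjusted p = 0.014). The PBS replicates differed for Cdkn1c, and both were well above the IL-1β pair. Smpd3, the neutral sphingomyelinase 2 gene, had 20 and 20.9 CPM against 3.21 and 3.53 CPM (log2 fold change -2.61 ± 0.18, adjusted p = 0.00185). Sema7a, the gene of a membrane-anchored semaphorin, had 13.7 and 23 CPM against 2.72 and 3.44 CPM. Npas4, a neuronal activity-regulated transcription factor, went from 5.84 and 14.8 CPM to 1.31 and 0.529 CPM. Others of the 15 largest falls were Pgm5, Vsig8, Efr3b, Ighm, Gm17749, Tox2, Gm15156, Galnt9 and Fgf13, with log2 fold changes from -3.71 to -2.50. Efr3b was not called without the low-count filter (adjusted p = 0.184). No fall of these 15 was called without IL-1β replicate 1.

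**Figure D2:**
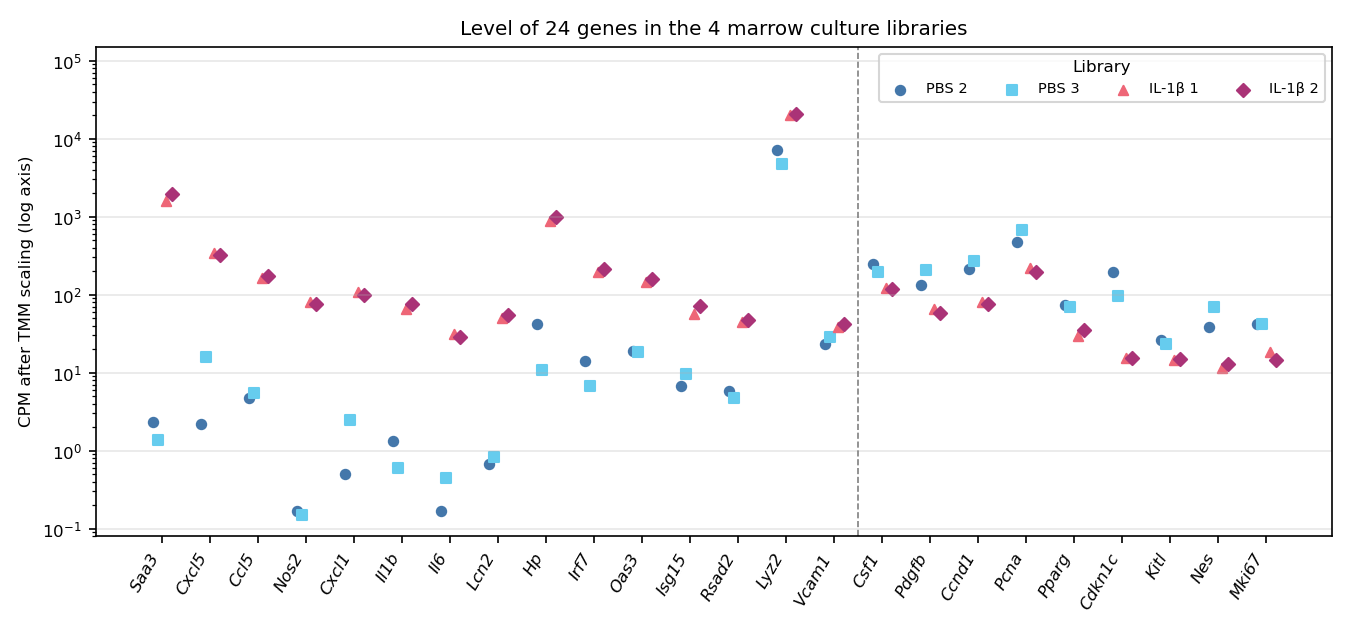
CPM on a logarithmic axis of 24 genes in the 4 marrow culture libraries, with 15 genes that were called higher with IL-1β to the left of the dashed line and 9 called lower to its right. Each point is a library, and for all 24 genes the IL-1β libraries lie on one side of the PBS libraries, from Saa3 at 1603 and 1955 against 2.33 and 1.36 CPM to Mki67 at 18.3 and 14.4 against 41.8 and 42.4 CPM.

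The IL-1 system itself responded at its ligands more than at its receptor. Of 6 tested ligands, binding proteins and antagonists of the family, 4 rose (median log2 fold change 1.51). Il1b was at 1.33 and 0.602 CPM with PBS and at 64.6 and 75.9 CPM with IL-1β (log2 fold change 6.36 ± 0.28, adjusted p = 0.00062). The cytokine was added as protein, and these reads are transcripts. Il1a, the gene of the other IL-1 receptor agonist, stayed low, at 0.167 and 0.452 CPM with PBS and 3.25 and 2.82 CPM with IL-1β (log2 fold change 3.09 ± 0.54, adjusted p = 0.0229). Il1rn, encoding the receptor antagonist, rose from 33.8 and 44.1 CPM to 65.4 and 64.2 CPM (log2 fold change 0.72 ± 0.15, adjusted p = 0.0339), and Il18bp, which encodes the decoy of IL-18, from 6 and 3.54 to 21.9 and 23.1 CPM. Il1r1, the signalling receptor gene, was at 5 and 7.68 CPM with PBS and 10.6 and 7.94 CPM with IL-1β. Its IL-1β values lay just above its PBS values, and the difference was not called (log2 fold change 0.52 ± 0.28, adjusted p = 0.277). Among 12 receptors and adaptors tested, Irak3, a kinase-like inhibitor of the pathway, alone was called (log2 fold change 1.40 ± 0.18, adjusted p = 0.0102). This is 8.3% of the list, against 7.14% of all genes called higher. Myd88 was at 79.4 and 72.5 CPM with PBS and 106 and 108 CPM with IL-1β, and its log2 fold change of 0.50 ± 0.10 lay just under the fold threshold. With limma-voom it was 0.504 (adjusted p = 0.0257), and with edgeR without the low-count filter 0.539 (adjusted p = 0.000843), both just over that threshold. Of these 5 calls, that of Il1b remained when either IL-1β library was left out.

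Of 18 NF-κB subunits and feedback regulators, 9 rose and 9 were not called (median 0.62, against 0.00 over all genes). The largest log2 fold change of the list was that of Zc3h12a, which encodes the ribonuclease regnase-1 and was at 16.3 and 16.4 CPM with PBS and 47.5 and 52.4 CPM with IL-1β (log2 fold change 1.61 ± 0.12, adjusted p = 0.00249). Bcl3, an atypical IκB, had 24.7 and 31 CPM and then 83.9 and 79.8 CPM, a log2 fold change of 1.54 ± 0.14 (adjusted p = 0.00388). Nfkbiz, a further atypical IκB, rose by 1.5 ± 0.18 and Nfkbia, the classical inhibitor IκBα, by 1.03 ± 0.16. Among the subunits, Relb and Nfkb2 of the non-canonical dimer rose by 0.98 ± 0.12 and 0.75 ± 0.13. Rela, the p65 subunit gene, was at 139.7 and 157 CPM with PBS and 161 and 159 CPM with IL-1β (adjusted p = 0.557), and Tnfaip3, which encodes A20, at 23.7 and 29.5 CPM with PBS and 30.6 and 34.6 CPM with IL-1β (adjusted p = 0.289). The 9 calls were lost without either IL-1β library.

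Chemokine genes were among the largest rises. Of 11 CXC chemokines tested, 9 rose (median 2.64, or 2.59 with 2 genes near 0 set to their bounds). Cxcl1, a neutrophil attractant, was at 0.5 and 2.49 CPM with PBS and 107 and 98.1 CPM with IL-1β (log2 fold change 5.82 ± 0.37, adjusted p = 0.00211). Cxcl5, of the same class, was at 2.17 and 15.7 CPM with PBS and 340.2 and 324 CPM with IL-1β (log2 fold change 5.05 ± 0.75, adjusted p = 0.0292). The PBS replicates of Cxcl5 were far apart, both were far below the IL-1β pair, and without the low-count filter its adjusted p was 0.202. Cxcl16, a scavenger receptor and ligand of CXCR6, began at a higher level and rose from 276 and 247 CPM to 509.8 and 547 CPM. Pf4, encoding platelet factor 4, rose from 17 and 22.3 to 95.6 and 105 CPM (log2 fold change 2.33 ± 0.16, adjusted p = 0.00176). The interferon-inducible Cxcl10 was low, at 1.17 and 0.377 CPM with PBS and 4.36 and 4.06 CPM with IL-1β. Of these 9 calls, that of Pf4 remained without either IL-1β library.

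Of 14 CC and CX3C chemokines tested, 6 rose (median 0.84). Ccl5, which attracts T cells and monocytes, went from 4.67 and 5.42 CPM to 164 and 172 CPM (log2 fold change 5.03 ± 0.14, adjusted p = 0.00021). Ccl6 and Ccl9, chemokines of mouse myeloid cells, were at 77.5 and 116 CPM with PBS and 770.1 and 738 CPM with IL-1β for Ccl6 and at 207 and 190.3 CPM with PBS and 570.5 and 594 CPM with IL-1β for Ccl9. Both pairs were clearly apart. Ccl2, the monocyte attractant, was at 64 and 80.7 CPM with PBS and 163 and 159.5 CPM with IL-1β (log2 fold change 1.15 ± 0.14, adjusted p = 0.0086). Ccl4 was at 46.7 and 46.9 CPM with PBS and 45.5 and 43.5 CPM with IL-1β and was not called (adjusted p = 0.693), and neither was Ccl3 (log2 fold change 0.47 ± 0.16, adjusted p = 0.112). The CC response was thus uneven, from 5.03 for Ccl5 to -0.07 for Ccl4 on the log2 scale. Without IL-1β replicate 1 and without replicate 2, 1 and 2 of the 6 calls remained.

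Of 20 cytokines and growth factors tested, 3 rose, 3 fell and 14 were not called (median 0.66). The 15% called in each direction compares with 7.14% higher and 4.31% lower of all genes. Il6 was at 0.167 and 0.452 CPM with PBS and 30.9 and 28.6 CPM with IL-1β (log2 fold change 6.34 ± 0.30, adjusted p = 0.00091). It was near 0 in both PBS libraries and was called in every fit with 1 library left out. Vegfa, the vascular growth factor gene, rose from 54.5 and 41 to 135 and 137 CPM (adjusted p = 0.00513), and Il15 from 7.67 and 9.56 to 16.8 and 21.2 CPM. Csf1, the gene of the macrophage growth factor M-CSF, fell from 247 and 198 CPM to 123 and 119 CPM (log2 fold change -0.87 ± 0.14, adjusted p = 0.0175). Its receptor gene Csf1r moved the other way. Pdgfb, a mitogen of mesenchymal cells, fell from 134 and 207 to 66.1 and 57.5 CPM (log2 fold change -1.47 ± 0.22, adjusted p = 0.0185). Tnf was at 18.2 and 16.3 CPM with PBS and 20 and 19.4 CPM with IL-1β and was not called. Lif was at 3.5 and 8.28 CPM with PBS and 16.1 and 14.9 CPM with IL-1β, above its PBS values in both IL-1β libraries but not called (adjusted p = 0.0708). Of the 6 calls, that of Il6 remained without either IL-1β library.

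Of 11 acute-phase and antimicrobial genes tested, 8 rose, with a median of 4.15 (2.74 with Saa1, near 0 with PBS, set to its bound). Lcn2, which encodes the iron-sequestering lipocalin 2, was at 0.667 and 0.828 CPM with PBS and 50.7 and 54.5 CPM with IL-1β (log2 fold change 6.07 ± 0.19, adjusted p = 0.000268). Hp, encoding haptoglobin, was at 42.2 and 10.8 CPM with PBS and 887 and 996 CPM with IL-1β, with PBS replicates that differed by a wide margin and IL-1β replicates close together (log2 fold change 5.22 ± 0.73). It was called with an adjusted p of 0.0247, and without the low-count filter its adjusted p was 0.184. Slpi, a protease inhibitor gene, rose by 4.15 ± 0.30, the ferroxidase gene Cp by 2.74 ± 0.23 and the pentraxin gene Ptx3 by 1.34 ± 0.14 on the log2 scale. S100a8, the calprotectin subunit gene of neutrophils, was at 0.667 and 0.753 CPM with PBS and 1.11 and 1.85 CPM with IL-1β and was not called (adjusted p = 0.287). Of the 8 calls, 2 remained without IL-1β replicate 1 and 3 without replicate 2.

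Enzymes of nitric oxide, arginine, itaconate and prostaglandin metabolism rose at 8 of 11 genes (median 1.49). Nos2, the inducible nitric oxide synthase gene (chromosome 11, 78920787 to 78960254), was at 0.167 and 0.151 CPM with PBS, that is 1 and 2 counts, and at 81.1 and 76 CPM with IL-1β. It was at least 216-fold higher against the floor of 3 counts per library. Acod1, which makes itaconate, was at least 53.6-fold higher, with 17.4 and 21.4 CPM under IL-1β, and the mitochondrial arginase gene Arg2 at least 33.2-fold higher. Slc7a2, an arginine transporter gene, rose from 12.7 and 10.8 to 38.4 and 37 CPM. Ptgs2, which encodes cyclooxygenase 2, rose from 8.34 and 9.56 to 29.5 and 21.9 CPM (log2 fold change 1.52 ± 0.21, adjusted p = 0.012) and Sod2, the mitochondrial superoxide dismutase gene, from 86.2 and 80.4 to 206 and 234 CPM. Ass1, which recycles citrulline to arginine, was at 59.5 and 87.8 CPM with PBS and 55.3 and 58.5 CPM with IL-1β and was not called. Without IL-1β replicate 1, 2 of the 8 calls remained, and without replicate 2, 3 remained.

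Complement genes rose at 8 of 15 (median 1.48). C3, the central component, was at 15.7 and 33.4 CPM with PBS and 284 and 302 CPM with IL-1β (log2 fold change 3.53 ± 0.36, adjusted p = 0.00947). Cd55, the decay-accelerating factor that limits C3 conversion, had 0.333 and 0.753 CPM and then 15.3 and 17.9 CPM (log2 fold change 4.75 ± 0.33, adjusted p = 0.00185). Serping1, the C1 inhibitor gene, rose by 2.66 ± 0.29 and Cfp, encoding properdin, by 2.23 ± 0.27. C1qb was abundant, at 2859 and 2459 CPM with PBS and 3491 and 3462 CPM with IL-1β, and was not called (adjusted p = 0.107). Of the receptors of microbial products, 9 of 14 Toll-like receptors and partners rose (median 1.06). Tlr2, the lipopeptide receptor gene, was at 48.9 and 19.4 CPM with PBS and 203 and 227 CPM with IL-1β (log2 fold change 2.70 ± 0.46, adjusted p = 0.0332, 0.233 without the low-count filter). Cd14, the endotoxin co-receptor gene, was at 259 and 205 CPM with PBS and 581 and 643 CPM with IL-1β (log2 fold change 1.40 ± 0.15, adjusted p = 0.00604). Without IL-1β replicate 2, 1 complement call remained, and none of the Toll-like receptor calls did.

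Of 10 formyl peptide and C-type lectin receptor genes, 6 rose (60%, against 7.14% of all genes) and 1 fell (10%, against 4.31%). Their median was 1.61. Fpr1 was at 0 and 0.226 CPM with PBS and at 31.6 and 29.4 CPM with IL-1β, at least 84.0-fold higher, and Fpr2 was at least 41.9-fold higher. Clec4d, a lectin gene of myeloid cells, was at 332 and 324 CPM with PBS and 728 and 786 CPM with IL-1β (log2 fold change 1.21 ± 0.11, adjusted p = 0.00398). Clec7a, which encodes the fungal glucan receptor dectin-1, was the gene that fell, from 474 and 412 to 288 and 260.1 CPM (log2 fold change -0.69 ± 0.12, adjusted p = 0.0251). Of 11 inflammasome genes, 5 rose (median 0.42). Nlrp3, the sensor that drives IL-1β maturation, was at 21.2 and 14.6 CPM with PBS and 40.4 and 40.5 CPM with IL-1β (log2 fold change 1.21 ± 0.19, adjusted p = 0.018), while the IL-1β-cleaving Casp1 was at 80.4 and 64.2 CPM with PBS and 77.5 and 80.4 CPM with IL-1β and was not called. The 2 formyl peptide receptor calls remained without either IL-1β library, and the inflammasome calls did not.

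Genes induced by interferon had the largest share of calls of any list. Interferon signalling runs through a complex that includes STAT2 and IRF9 and binds a tandem GAAA element in the promoters of antiviral genes. Of 30 interferon-stimulated genes tested, 29 rose and Isg20 was not called (adjusted p = 0.0573), with a median log2 fold change of 2.83. The IL-1β pair lay wholly above the PBS pair for all 30, against 31.3% of all genes. Irf7, the transcription factor that amplifies type I interferon production, was at 14 and 6.78 CPM with PBS and 198 and 217 CPM with IL-1β (log2 fold change 4.41 ± 0.33, adjusted p = 0.00367). Oas3, an RNA-sensing oligoadenylate synthetase gene, was at 19 and 18.5 CPM with PBS and 145 and 160.4 CPM with IL-1β (log2 fold change 3.03 ± 0.12, adjusted p = 0.000584). The treatments were far apart for both genes. Isg15, a ubiquitin-like modifier gene, was at 6.67 and 9.64 CPM with PBS and 56.4 and 70.9 CPM with IL-1β (log2 fold change 2.91 ± 0.21, adjusted p = 0.00211). Rsad2, which encodes viperin, was at 5.84 and 4.67 CPM with PBS and 44.8 and 47.7 CPM with IL-1β (log2 fold change 3.17 ± 0.16, adjusted p = 0.00124). Among the signal transducers themselves, Stat2 rose by 2.20 ± 0.11 and Irf9 by 0.93 ± 0.15. Ifnb1, the interferon-β gene, had 2 counts in IL-1β replicate 1 and 0 in the other libraries, and 13 interferon-α genes had 0 counts in all. Without IL-1β replicate 1 and without replicate 2, 13 and 14 of the 29 calls remained, the highest numbers of any list.

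Of 12 interferon-induced GTPases, which attack the vacuoles of intracellular pathogens, 10 rose (median 1.98). Gbp2 was at 8.84 and 10.3 CPM with PBS and 41.9 and 40.1 CPM with IL-1β (log2 fold change 2.08 ± 0.14, adjusted p = 0.00185). Gbp5 was at 0.5 and 0.527 CPM with PBS and 9.84 and 11.6 CPM with IL-1β (log2 fold change 4.34 ± 0.31, adjusted p = 0.00196), and Gbp6 was at least 23.6-fold higher. Members of this family resemble each other closely, so reads may be shared among them. MHC class I presentation rose at 10 of 15 genes (median 0.79). H2-K1, a classical class I heavy chain gene, was at 1003 and 789 CPM with PBS and 2691 and 2760.0 CPM with IL-1β (log2 fold change 1.61 ± 0.15, adjusted p = 0.00455), and Nlrc5, the class I transactivator gene, rose from 12 and 11 to 50 and 45.5 CPM. The class II genes did not follow. Of 13 class II and costimulation genes, Cd86 and Cd274 rose (15.4%, against 7.14% of all genes). H2-Ab1 was at 147 and 83.6 CPM with PBS and 126 and 149 CPM with IL-1β, where the treatments overlapped. Calls that remained without IL-1β replicate 2 were 2 of the GTPases and 1 of the class I genes, and without IL-1β replicate 1 no GTPase and no class I call remained.

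The following stretches show the 2 promoter elements that were searched, in genes that rose. They were taken from RefSeq promoters (250 bases before to 50 after the start, GRCm38.p6) and run 5′ to 3′ on the strand of the gene. Capitals mark every match to the NF-κB consensus in Cxcl1 (chr5:90891144-90891214, plus strand) and Il6 (chr5:30013040-30013109, plus strand), and every match to the interferon repeat (GAAA, any 2 bases, GAAA) or its reverse complement in Isg15 (chr4:156200845-156200926, minus strand), Ifit1 (chr19:34640755-34640843, plus strand) and Rsad2 (chr12:26456533-26456602, minus strand).
Cxcl1: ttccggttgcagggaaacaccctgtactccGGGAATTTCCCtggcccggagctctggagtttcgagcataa
Il6: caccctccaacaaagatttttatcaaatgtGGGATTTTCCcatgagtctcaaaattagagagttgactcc
Isg15: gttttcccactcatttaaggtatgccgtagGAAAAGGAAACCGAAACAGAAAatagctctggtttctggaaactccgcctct
Ifit1: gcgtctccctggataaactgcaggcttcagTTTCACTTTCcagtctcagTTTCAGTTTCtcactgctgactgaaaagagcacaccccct
Rsad2: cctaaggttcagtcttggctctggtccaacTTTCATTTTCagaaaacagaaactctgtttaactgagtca
Cxcl1 has 2 overlapping NF-κB matches, 71 to 61 bases upstream of its start, and Il6 has 1 at 44 to 35 bases. Isg15 has 3 overlapping repeat matches at 78 to 57 bases, Ifit1 has 2 and Rsad2 has 1.

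Over the table, matches on either strand were counted in 20539 promoters. The GAAA repeat occurred in 3.37% of all promoters, in 3.22% of the 9963 promoters of tested genes, in 11% (80 of 727) of those of genes called higher, in 1.96% (9 of 460) of those called lower and in 2.64% of the rest. It was present in 10 of 22 interferon-stimulated gene promoters and in 8 of 8 GTPase promoters. The NF-κB consensus occurred in 8.76% of all promoters, in 12.1% (88 of 727) of those of genes called higher, in 9.78% (45 of 460) of those called lower and in 10.2% of the rest. It was present in 9 of 15 promoters of NF-κB subunits and regulators and in 4 of 9 CXC chemokine promoters, against 10.3% of the promoters of tested genes. The same consensus was in 5 of 22 interferon-stimulated gene promoters and 2 of 8 GTPase promoters. The GAAA repeat was in 2 of 9 CXC chemokine promoters and in 0 of 15 of the NF-κB list. A match is a description of the letters and not of binding. Nos2, Ccl5, Cxcl5, Hp, Cxcl16, Mx1 and Usp18 have no promoter in the table.

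The niche factors split. Kitl, which encodes stem cell factor, fell from 26 and 23 CPM to 14.7 and 14.8 CPM (log2 fold change -0.72 ± 0.14, adjusted p = 0.0322), and Nes, a marker gene of perivascular stromal cells, fell from 38.8 and 69.2 to 11.6 and 12.8 CPM (log2 fold change -2.17 ± 0.29, adjusted p = 0.0142). Vcam1, the adhesion molecule that retains progenitors, rose from 23.2 and 28.4 to 39 and 42.4 CPM, and the Notch ligand gene Jag1 from 13.5 and 14 to 22.8 and 25.2 CPM. Spp1, encoding osteopontin, was at 2621 and 3223 CPM with PBS and 5459.7 and 5168 CPM with IL-1β (log2 fold change 0.86 ± 0.14, adjusted p = 0.021). Of 9 tested niche factors these 3 rose (33.3%, against 7.14% of all genes) and 2 fell (22.2%, against 4.31%). Cxcl12, the main retention chemokine, was at 305 and 70 CPM with PBS and 283 and 276 CPM with IL-1β and was not called (log2 fold change 0.59 ± 0.71, adjusted p = 0.64). PBS replicate 2 lay above both IL-1β libraries and PBS replicate 3 far below them, so the sign of Cxcl12 depended on the control: its log2 fold change was -0.12 without PBS replicate 3. The 5 calls were lost without either IL-1β library.

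Collagen genes showed little net movement. Of 19 tested, Col5a3 and Col6a1 rose (10.5%, against 7.14% of all genes), and the median was 0.00 (-0.06 with upper-quartile scaling). Col1a1 had a log2 fold change of 0.98 ± 0.35 (adjusted p = 0.147), and Col1a2 was at 1068 and 629 CPM with PBS and 864 and 1006 CPM with IL-1β. Col3a1, the type III collagen gene, was at 511 and 179.6 CPM with PBS and 1325 and 1498 CPM with IL-1β. Both IL-1β values of Col3a1 were above both PBS values, the PBS replicates were far apart, and the gene was not called by edgeR (log2 fold change 2.04 ± 0.53, adjusted p = 0.0851), while DESeq2 gave an adjusted p of 0.0278 and limma-voom 0.0306. Among 29 matrix glycoproteins and collagen-modifying enzymes, 9 rose (31.0%, against 7.14% of all genes) and 1 fell (3.4%, against 4.31%). Their median was 0.39. Dcn, encoding the proteoglycan decorin, was at 63.4 and 84 CPM with PBS and 236 and 212 CPM with IL-1β (log2 fold change 1.6 ± 0.16, adjusted p = 0.00513), and Vcan, encoding versican, rose from 13.7 and 14.5 to 52.7 and 42.9 CPM. The prolyl hydroxylase genes P4ha1 and P4ha2 rose by 0.71 ± 0.11 and 1.1 ± 0.18. Without IL-1β replicate 2, 1 of these matrix calls remained, and without replicate 1 none did.

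Of 21 matrix proteases and inhibitors, 4 rose (19.05%, against 7.14% of all genes) and 1 fell (4.76%, against 4.31%), with a median of 0.37. Mmp14, which encodes the membrane-bound collagenase MT1-MMP, was at 152 and 157 CPM with PBS and 454 and 468 CPM with IL-1β (log2 fold change 1.58 ± 0.10, adjusted p = 0.00176). Mmp13, a secreted collagenase gene, was at 100.04 and 34.9 CPM with PBS and 469.6 and 491 CPM with IL-1β (log2 fold change 2.86 ± 0.54, adjusted p = 0.043, 0.267 without the low-count filter). Mmp3, encoding stromelysin 1, was at 18.8 and 107 CPM with PBS and 597 and 609.5 CPM with IL-1β. Its PBS replicates were far apart, and it was not called by edgeR (adjusted p = 0.088) but was by DESeq2 (adjusted p = 0.0131). Plaur, the urokinase receptor gene, fell from 69.2 and 87.7 to 47.3 and 42 CPM. Of 23 TGF-β and myofibroblast genes, 3 rose (13.04%, against 7.14% of all genes) and 1 fell (4.35%, against 4.31%), with a median of -0.24. Tgfb1 was at 533 and 478 CPM with PBS and 452 and 435 CPM with IL-1β and was not called (adjusted p = 0.32). Cnn1, encoding the smooth muscle protein calponin 1, fell from 34.3 and 18.8 CPM to 8.98 and 9.62 CPM (log2 fold change -1.49 ± 0.30, adjusted p = 0.0341). Acta2, the α-smooth muscle actin gene, was at 774 and 329 CPM with PBS and 233 and 245 CPM with IL-1β and was not called (log2 fold change -1.20 ± 0.42, adjusted p = 0.139), and Tagln, at 485 and 237 CPM with PBS and 122 and 137 CPM with IL-1β, was called by DESeq2 and limma-voom but not by edgeR (adjusted p = 0.0652). DESeq2 called 8 genes of this list lower against 1 by edgeR. Without IL-1β replicate 2 the call of Mmp14 remained, and without IL-1β replicate 1 no call of these lists did.

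Genes of the adipocyte, osteoblast and osteoclast lineages were mixed. Of 9 adipocyte genes, 3 fell (33.3%, against 4.31% of all genes) and 2 rose (22.2%, against 7.14%). Their median was -0.35. Pparg, the adipogenic nuclear receptor gene that macrophages also express, fell from 74 and 70 CPM to 29.7 and 34.9 CPM (log2 fold change -1.16 ± 0.12, adjusted p = 0.00598). The fatty acid transporter gene Cd36 fell from 1280.0 and 1360.0 to 586 and 607 CPM and the lipid droplet gene Plin2 from 1076 and 1359 to 539 and 533 CPM. The stress-responsive factors Cebpb and Cebpd rose by 1.03 ± 0.10 and 1.30 ± 0.10. Of 13 osteoblast genes 6 could be tested, and the one called was Dlx3, at least 7.87-fold lower (adjusted p = 0.0445), for which DESeq2 gave 0.0518. That gene is 16.7% of those tested, against 4.31% of all genes called lower. Of 7 osteoclast genes, the tartrate-resistant phosphatase gene Acp5 rose from 5.17 and 1.73 to 18.5 and 18.8 CPM and the integrin gene Itgb3 fell from 60.7 and 52.1 to 21.6 and 24.6 CPM. Each is 14.3% of that list, against 7.14% higher and 4.31% lower of all genes. The adipocyte, osteoblast and osteoclast calls were lost without either IL-1β library.

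Cell cycle genes moved one way. Of 28 replication and mitosis genes, 13 fell and 15 were not called (median -0.74), and for 26 of them the IL-1β pair lay wholly below the PBS pair, against 29.8% of all genes. Pcna, the polymerase clamp gene, was at 467 and 683 CPM with PBS and 217 and 198 CPM with IL-1β (log2 fold change -1.47 ± 0.20, adjusted p = 0.0119). Mki67, the proliferation antigen gene, was at 41.8 and 42.4 CPM with PBS and 18.3 and 14.4 CPM with IL-1β (log2 fold change -1.35 ± 0.15, adjusted p = 0.00762). Birc5, encoding survivin, was at 17.8 and 16.3 CPM with PBS and 5.87 and 5.21 CPM with IL-1β (log2 fold change -1.61 ± 0.18, adjusted p = 0.00738). The 3 genes separated by treatment with no overlap. Among 10 cyclin-dependent kinase inhibitors and D cyclins, 5 fell. Ccnd1, encoding cyclin D1, went from 210.4 and 273 CPM to 80.1 and 75.5 CPM (log2 fold change -1.64 ± 0.15, adjusted p = 0.00416), and the inhibitor genes Cdkn2a and Cdkn2c fell together with it, with log2 fold changes of -1.05 and -1.09. Cdkn1a, encoding p21, was at 237 and 212 CPM with PBS and 235 and 249 CPM with IL-1β and was not called. These calls were lost without either IL-1β library, and without PBS replicate 2 or PBS replicate 3 the number of replication and mitosis genes called lower was 19.

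Metabolic genes moved less. Of 22 cholesterol synthesis and uptake genes, 8 rose (36.4%, against 7.14% of all genes), with a median of 0.72. Mvd, which encodes the decarboxylase of the mevalonate pathway, was at 44.5 and 33.1 CPM with PBS and 82.3 and 80.9 CPM with IL-1β (log2 fold change 1.09 ± 0.16, adjusted p = 0.0142), and Lss, the lanosterol synthase gene, rose from 38.8 and 30.1 to 66.2 and 73.2 CPM (adjusted p = 0.0154). Abca1, which exports cholesterol, rose as well, from 110.2 and 108 to 365 and 327 CPM (log2 fold change 1.67 ± 0.11, adjusted p = 0.00176). Of 17 glycolytic genes, 4 rose (median 0.33), led by Pfkfb3 (log2 fold change 1.26 ± 0.10, adjusted p = 0.00265), the activator of phosphofructokinase. Of 15 NRF2 and glutathione genes, 4 rose (median 0.36), including the haem oxygenase gene Hmox1 and the glutathione synthesis gene Gclm. Of 21 BCL2 family and death receptor genes, 3 rose (14.3%, against 7.14% of all genes) and 1 fell (4.8%, against 4.31%). Their median was 0.05, or -0.02 with upper-quartile scaling. Fas, the death receptor gene, was at 4.67 and 3.77 CPM with PBS and 16.8 and 18.8 CPM with IL-1β. Of 12 genes of the insulin-like growth factor system, the binding protein gene Igfbp3 rose and Igfbp6 fell. These are 8.3% in each direction, near the 7.14% higher and 4.31% lower of all genes. Of 12 adhesion molecules, Icam1, Vcam1 and Itgal rose and Itgax fell, the last with an adjusted p of 0.0332, or 0.23 without the low-count filter. These are 25% higher and 8.3% lower, against 7.14% and 4.31% of all genes. Of all calls in this paragraph, that of Abca1 remained without IL-1β replicate 2 and none remained without IL-1β replicate 1.

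**Figure D3:**
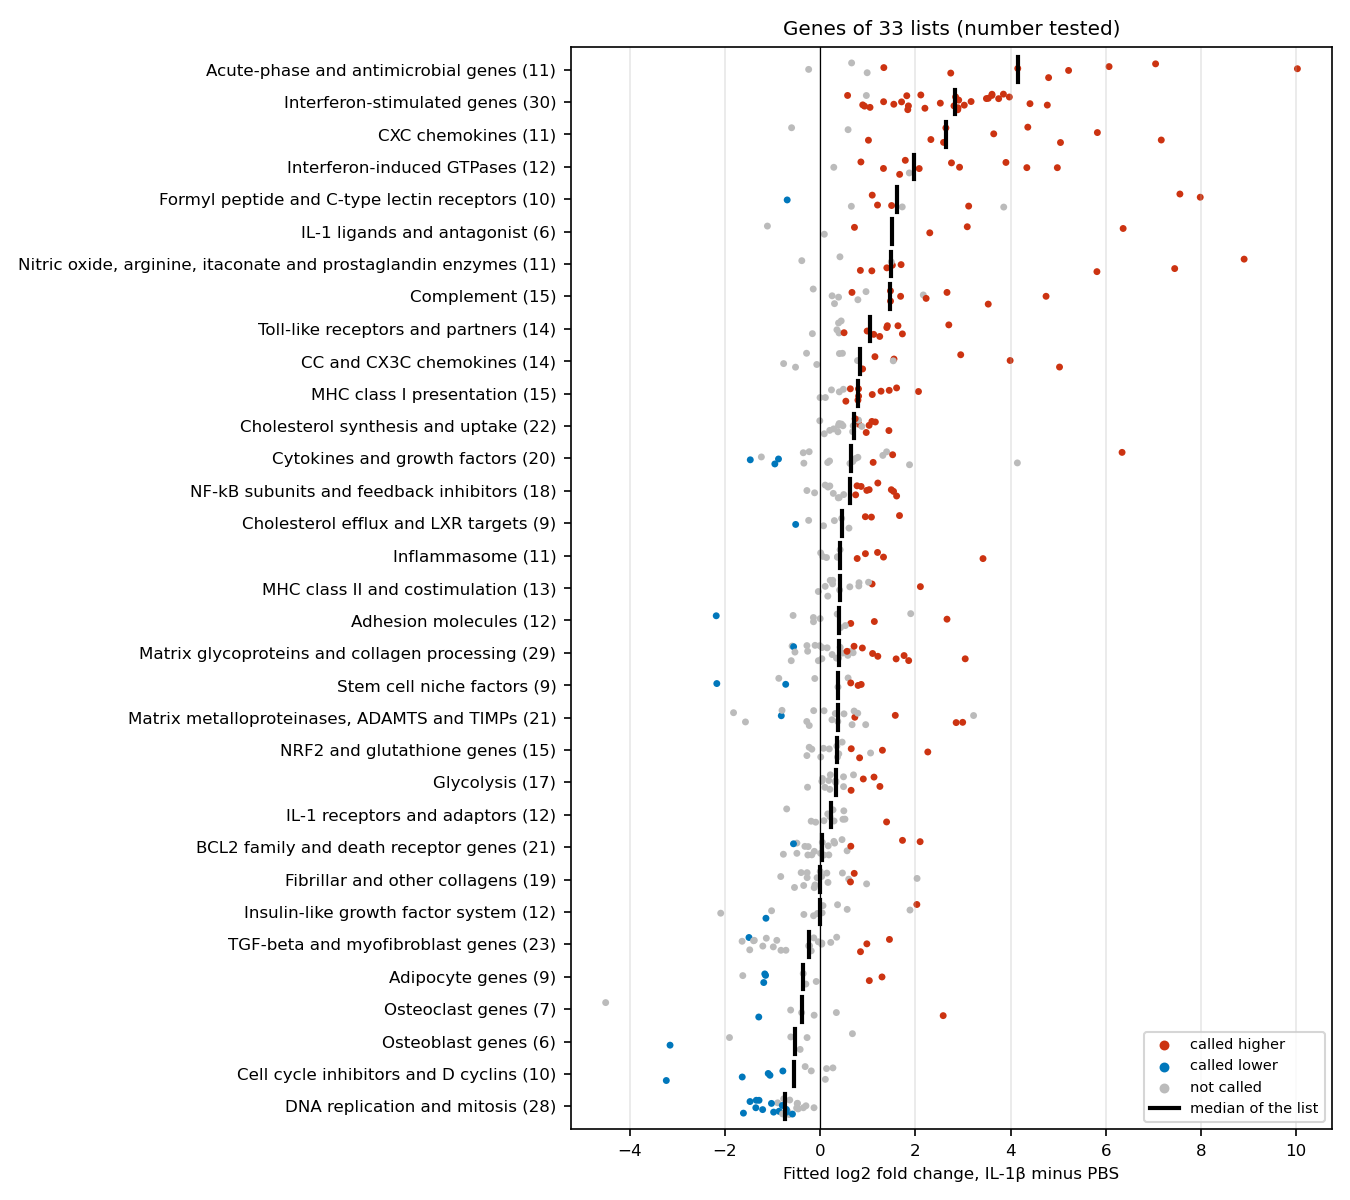
Log2 fold change with IL-1β of the tested genes of 33 lists in the marrow cultures, each point a gene, red where called higher, blue where called lower and grey where not called, with the list median as a black tick. The acute-phase list has a median of 4.15, 29 of 30 interferon-stimulated genes are red, and the replication and mitosis list lies below 0 with 13 blue points.

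The marrow culture response was set beside that of Lin-c-kit+ marrow progenitors (LK cells) from the same series, taken from heterozygous Jak2V617F mice that received IL-1β at 0.5 μg per dose or PBS by intraperitoneal injection, 3 doses a week for 16 weeks (2 and 3 libraries). Cell type, genotype with the Cre transgene, pI-pC, irradiation and transplantation, dose, route and duration all differ between the 2 experiments and cannot be told apart. Over 14810 genes, the response was higher in the marrow cultures at 536 (3.62%) and lower at 555 (3.75%), by a test of the interaction. Of the 945 genes called higher in the cultures, 314 had a higher response there than in LK cells and 17 a lower one. Of the 570 called lower, 163 had a lower response in the cultures. Leaving out any 1 library moved these counts. Both were lower without either IL-1β library of the cultures, or without PBS replicate 3 of the cultures. Both were also lower without either IL-1β library, PBS replicate 1 or PBS replicate 2 of the LK cells. They were higher without PBS replicate 2 of the cultures or PBS replicate 3 of the LK cells.

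Of 30 interferon-stimulated genes tested, 27 had a higher response in the marrow cultures, with a median difference of 3.09 on the log2 scale against 0.04 over all genes. For the 25 that could be tested in each experiment, the median log2 fold change was 2.20 in the cultures and -0.60 in LK cells, where 2 were called lower and 23 were not called. The log2 fold change was below 0 in LK cells for 21 of the 25, and its median over all genes was -0.03. Irf7 differed by 5.83 ± 0.56 (adjusted p = 0.000832), with 4.41 ± 0.33 in the cultures and -1.37 ± 0.47 in LK cells. Stat2 differed by 2.81 ± 0.26 (adjusted p = 0.000408), and Isg15 by 3.70 ± 0.50 (adjusted p = 0.00275). Macrophage markers summed to between 182 and 338 CPM per kb in the LK libraries, far below the marrow cultures, and the part of cell type in the difference was not tested.

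**Figure D4:**
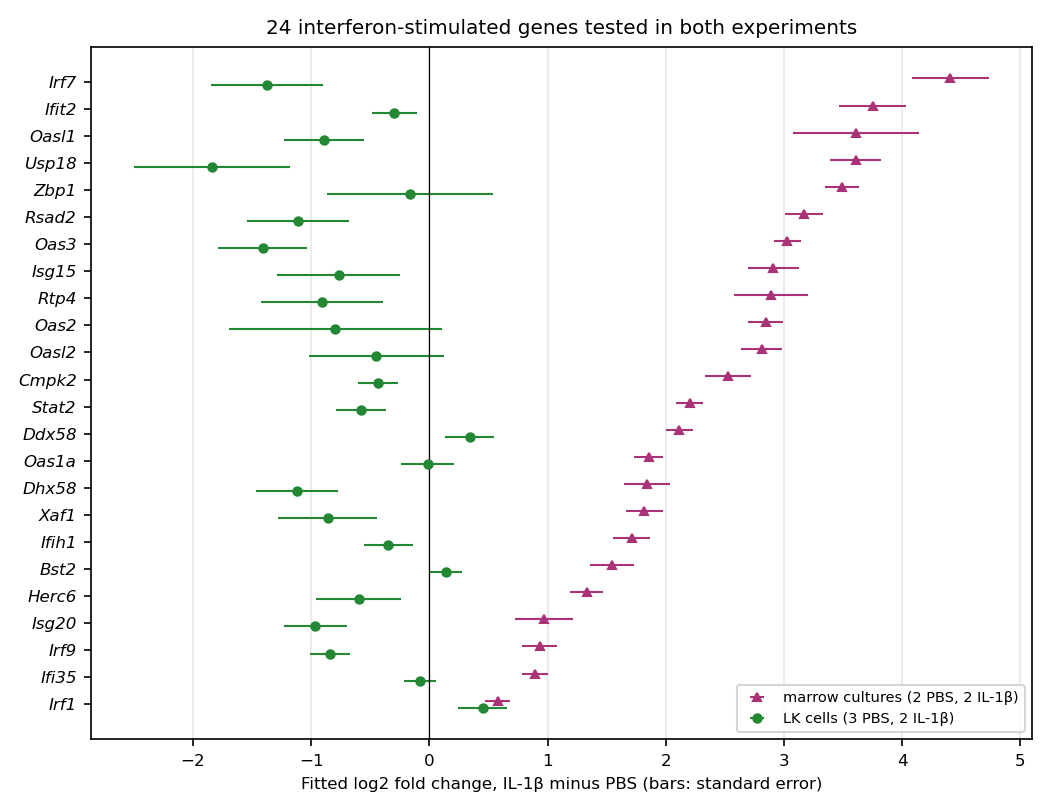
Log2 fold change with IL-1β ± SE of 24 of the 25 interferon-stimulated genes tested in each experiment, as triangles for marrow cultures and circles for LK cells. All 24 triangles lie above 0, with a median of 2.36, and 21 of the 24 circles lie below 0, with a median of -0.68.

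Other groups compared in several ways. Saa3 rose in both, by 10.02 ± 0.28 in the marrow cultures and 6.21 ± 0.38 in LK cells, and the difference was called (adjusted p = 0.00524). Lcn2 rose by 6.07 and 5.65, a difference of 0.44 ± 0.56 that was not called (adjusted p = 0.715). Csf1 fell in the cultures and its log2 fold change was 2.23 ± 0.22 in LK cells (difference -3.09 ± 0.25, adjusted p = 0.00028). S100a8 had a log2 fold change of 0.99 in the cultures and 5.61 in LK cells (difference -4.66 ± 0.70, adjusted p = 0.0041), a call that was lost without PBS replicate 3 of the cultures (adjusted p = 0.099). Of 28 replication and mitosis genes, 10 had a lower response in the cultures, and their median in LK cells was -0.09. For Pcna the difference was -1.21 ± 0.23 (adjusted p = 0.0127), which was lost without either IL-1β library of the cultures or of the LK cells. Of 17 glycolytic genes, 12 were called higher in LK cells and 4 in the cultures, and 3 had a response that was lower in the cultures by the test of the difference.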

How the data were processed

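RNA-seq libraries of marrow cultures (2 with PBS, 2 with IL-1β) were analysed, with 5 libraries of LK cells for comparison. The authors deposited whole-number counts of read pairs per gene, made with fastp 0.20.0, HISAT2 2.0.1, SAMtools 1.10 and featureCounts 2.0.2 with reverse-stranded counting on GRCm38. A further IL-1β culture library named in the table's header was not analysed here. Total counts per library ranged from 5834909 to 30871055 in the cultures and from 6367352 to 18544346 in LK cells, so low genes were least precise in PBS replicate 2. Symbols were matched for 55141 of 55487 identifiers.

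Genes were filtered with filterByExpr, scaled by TMM and tested with edgeR 4.0.16 (quasi-likelihood, robust) in R 4.3.3, two-sided, with Benjamini-Hochberg adjustment over all genes tested and thresholds of 0.05 and a log2 fold change of 0.5. Values after ± are standard errors. A fold against a group at or below 3 counts per library was computed against that floor, which covers counting error only. Alternatives used DESeq2 1.42.0, limma 3.58.1 (voom), other scalings and filters, and fits without each library. On simulated counts, 166 of 194 genes (85.6%) changed by a log2 of 2 were recovered for the culture contrast, with 25 false calls. For the difference from LK cells, 136 of 198 (68.7%) were recovered, with 10 false calls. Both treatments were given the same spread in the simulation, whereas the PBS pair varied more in the data. These figures may therefore not hold for the data. Members and lists were chosen with earlier results of these data known. Genes named are those the study's text names for these cultures, the 15 largest rises and falls among called genes with a mean of at least 1 log2 CPM, members of 33 pathway and 8 marker lists, sex-linked genes, and the 5 largest differences from LK cells in each direction. Members outside the 5 largest in a list were added after their values were seen. No set test was run. A few genes that this rule names are not reported here, though they stay in the counts and medians.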

Additional observations from a re-analysis of the deposited data

Results flagged for a closer look

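The IL-1β response differed between the marrow cultures and the LK cells, by the interaction test over 9 libraries, at 536 genes that were higher and 555 that were lower in the cultures. The largest differences that were higher in the cultures were 9.81 for Mx1, 9.73 for Marco, 8.86 for Gm4951, 7.98 for Abca9 and 7.55 for Ms4a4c on the log2 scale. Those lower in the cultures were -11.66 for Lipg, -9.29 for Rtn4rl2, -7.51 for Trnp1, -7.13 for Psma8 and -7.02 for Wfdc21. For 9 of these 10 genes a treatment group of LK cells had a library at 0 counts, and for Wfdc21 the 4 culture libraries had 0 to 2 counts, so the fitted size depends on the prior count. The calls of Marco, Gm4951, Abca9, Rtn4rl2, Trnp1 and Wfdc21 were lost in at least 1 fit without a library, and that of Trnp1 under the replicate block (adjusted p = 0.0634).

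Among genes named above, the test of the difference gave 5.83 for Irf7, 5.48 for Usp18, 4.48 for Oas3, 3.70 for Isg15 and 2.81 for Stat2, all interferon-stimulated, and 3.82 for Saa3. It gave 3.77 for Csf1r and 2.29 for Lyz2, and 2.78 for Ctss, which is not named above. These 3 are on the macrophage list, where 4 of 20 genes had a higher response in the cultures, against 3.62% of all genes. The log2 fold change of Csf1r was 1.25 in the cultures and -2.49 in LK cells. That of Ctss was 0.26 in the cultures and -2.49 in LK cells, so its difference lay mostly in the LK fall. It gave -4.66 for S100a8, -3.09 for Csf1 and -1.21 for Pcna. The call of Lyz2 was lost without IL-1β replicate 1 of the cultures (adjusted p = 0.0528) and without IL-1β replicate 2 of the LK cells (adjusted p = 0.0546). Cell type, genotype with the Cre transgene, pI-pC, irradiation and transplantation, dose, route and duration cannot be told apart as sources of these differences.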

How the results depend on the processing

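The numbers of genes called higher and lower in the marrow cultures were within 1.5 times the reported 945 and 570 with DESeq2 (996 and 719), limma-voom (1110 and 795), DESeq2 size factors (946 and 609), upper-quartile factors (817 and 831), a filter of 10 reads in 2 libraries (934 and 572) and no fold threshold (1017 and 607). Without a low-count filter they were 1439 and 915. Without 1 library each they ranged from 38 to 2038 and from 0 to 1781. The number of genes differing over 2-fold between the PBS replicates was 1324, and 4667 without the filter, where low counts entered. Of 260 named genes, 214 lost their call without IL-1β replicate 1 and 202 without IL-1β replicate 2. The log2 fold change of Cxcl12 ranged from -0.12 without PBS replicate 3 (adjusted p = 0.357) to 2.01 without PBS replicate 2. The cause of these changes was not tested. For the difference from LK cells, DESeq2 called 694 genes higher and 897 lower, no filter gave 1069 and 785, and fits without 1 library gave 168 to 844 and 127 to 1043.

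No paired analysis was possible because the PBS and IL-1β culture libraries share only replicate number 2. In the comparison with LK cells, a replicate block gave 346 genes higher and 391 lower. Libraries with the same number had correlations of 0.05, 0.05, -0.28 and -0.43 between their deviations from the group means. Within a pair of libraries the deviations mirror each other, so both values of 0.05 are the same number. These correlations therefore cannot show whether the numbers mark pairs. The cultures came from wild-type mice and the LK cells carry mutant Jak2, so a shared number does not mark a shared source.

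The shallowest library, PBS replicate 2, limits genes near 0 with PBS to lower bounds of their fold.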

Other observations

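Most tested members of some gene families that sit together in the genome were called higher, against 7.14% of all genes. These families were chosen after their values were seen. Of 10 Pyhin genes on chromosome 1, DNA sensors and their relatives, 9 rose with IL-1β (median log2 fold change 2.82). Their summed level was 323 and 289.6 CPM with PBS and 774 and 759 CPM with IL-1β. Ifi213 was at least 68.0-fold higher, and Ifi207, the most abundant member with PBS, was not called. Of 7 Schlafen genes on chromosome 11, 6 rose (median 1.98), of 8 Ms4a genes on chromosome 19, 6 rose (median 1.91), and of 4 Trim30 genes on chromosome 7, 4 rose (median 2.67). Without IL-1β replicate 1, 3 of the 9 Pyhin calls remained and no call of the other 3 families did. Without IL-1β replicate 2, 5 Pyhin, 2 Schlafen, 3 Ms4a and 2 Trim30 calls remained. Members of these families are similar in sequence, and reads may be shared among them. Macrophage markers rose as well, at 8 of 20 genes, and their part was not tested.

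Other families had medians below 0, more so under upper-quartile scaling, with calls for some of their members. Over all genes, 4.31% were called lower. All calls of these families were lost without either IL-1β library. Of 8 S100a genes, which encode small calcium-binding proteins, 5 fell (median -0.94, -1.01 with upper-quartile scaling). Of 10 annexin genes, 4 fell, Anxa1, Anxa2, Anxa4 and Anxa5 (median -0.50). Of 83 cytosolic ribosomal protein genes, 16 fell (median -0.49), and for 77 of the 83 the IL-1β pair lay wholly below the PBS pair, as it did for 29.8% of all genes. The summed level of the ribosomal protein genes was 42339 and 51981 CPM with PBS and 33185 and 35418 CPM with IL-1β. Of 37 genes taken by the Nduf prefix, which most complex I subunit genes carry, 13 fell and Ndufa4l2 alone rose (median -0.48). Membership went by gene name, so not every member need be a subunit of the complex. Of 11 protein genes of the mitochondrial genome, 3 fell. The summed level of the 11 was 11973 and 14829.9 CPM with PBS and 8993 and 5466 CPM with IL-1β, so that the IL-1β pair differed as well. The largest part was mt-Co1, at 5715 and 7746 CPM with PBS and 5405 and 3401 CPM with IL-1β, which was not called (adjusted p = 0.197). Of the 3 that fell, mt-Co3 was low, at 4.33 and 6.55 CPM with PBS and 1.71 and 1.32 CPM with IL-1β.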
